A study of Mus musculus with 95 samples.

Results

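The mir-135 family was followed through small RNA sequencing of mouse striatum, cortex and liver. Its members are the 3 rows of the count table for mir-135a-1 (identifier MI0000452), mir-135a-2 (MI0000453) and mir-135b (MI0000810), taken by identifier from 1881 features, of which 415 had a count in any library. The mice were 6 months old, on a C57BL6/J background, and came from 2 lines that carry the z_Q175 knock-in (KI), a mouse model of Huntington's disease in which the huntingtin gene holds an expanded CAG repeat. In line CHDI-81003003 the neomycin resistance cassette (neo) was intact and KI mice were Het z_Q175 KI, and in line CHDI-81003019 it was deleted and KI mice were Het Z_Q175 (neo-) KI. Wild type (WT) littermates of each line were the controls. Striatum and cortex of the left hemisphere and the left lobe of the liver were taken from 32 animals, which makes 12 groups and 95 libraries. A group holds 8 animals (4 females and 4 males), and only the neo-deleted KI striatum has 7. The labels do not say more about how the lines were made or kept than that KI mice were housed with WT mice.

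A microRNA is cut from a hairpin precursor, and 1 arm of the hairpin then guides a silencing complex to messenger RNAs that pair with its seed, bases 2 to 8. In mouse, miR-135 is known from work on serotonergic neurons and stress, where it acts on the messages of the serotonin transporter and of an inhibitory serotonin receptor. The 2 precursors of miR-135a and the precursor of miR-135b are separate genes whose 5′ arms are nearly alike.

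The sequences below are shown because the 2 mir-135a rows share a 5′ arm that mir-135b does not have in full. They are mouse RefSeq sequences on GRCm38.p6, 5′ to 3′, with the seed or the bases at its place in capitals.
miR-135a-5p, from Mir135a-1 and from Mir135a-2: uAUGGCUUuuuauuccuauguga
Mir135b hairpin, bases 16 to 38: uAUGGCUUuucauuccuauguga
miR-135a-1-3p: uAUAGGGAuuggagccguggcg
miR-135a-2-3p: uGUAGGGAuggaagccaugaa
miR-135b-3p: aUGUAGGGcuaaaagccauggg
The 23-base 5′ arm was identical in Mir135a-1 and Mir135a-2, so a read of it matches both. The matching stretch of Mir135b has the same bases at the seed and 1 difference, U11C, counted from 1 at the 5′ end of miR-135a-5p. Among 1679 mature names in the RefSeq table, the seed AUGGCUU belonged to miR-135a-5p alone. That table lists only the 3′ arm of Mir135b as mature, so the 5′ arm of Mir135b could not be counted there. The 3′ arms differ at their seeds, and the whole hairpins were 67% (mir-135a-1 and mir-135a-2), 67.7% (mir-135a-1 and mir-135b) and 63.3% (mir-135a-2 and mir-135b) identical.

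Mir135a-1 lies at chr9:106154124-106154213 on the plus strand of GRCm38, in an intron of the non-coding gene D030055H07Rik on the same strand and opposite an untranslated exon of Glyctk. Mir135a-2 lies at chr10:92072086-92072185 on the minus strand, in an intron of the long non-coding RNA Rmst. Mir135b lies at chr1:132198088-132198184 on the plus strand, in introns of Lemd1 and of AC124108.1. The sources used here do not give the species of the hairpins to which the authors assigned reads, nor how they did so. The feature lengths implied by the deposited tables were 90, 100 and 97 nt, the lengths of the 3 mouse hairpins, but 8, 7 and 14 of 1005 mouse hairpins share each of these lengths, so that length does not identify an entry. A row is therefore an entry to which reads were assigned, and the mouse sequences are its context.

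Total counts ran from 74540 to 496035 per library, with a median of 124029, and no 2 libraries held the same counts. Each library name carries a number after the letter L, here the L number, whose meaning the labels do not give. It moves with depth. The 17 striatal libraries with L7 had a median total of 117174 and the 14 with L8 one of 417800, while the 19 cortical libraries with L1 had 124127 and the 12 with L8 had 426830. Liver libraries had L1, L2 or L3. L number is unevenly spread over the groups: all 8 neo-intact KI cortices had L1, and 7 of 8 neo-intact WT striata had L7 against 3 of 8 neo-intact KI striata. Levels below are counts per 1000000 of the library total (CPM), as mean ± SD over libraries, and tests are edgeR's quasi-likelihood test with trimmed-mean (TMM) scaling, with Benjamini-Hochberg adjustment over all features tested and a threshold of 0.05.

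All 3 rows were detected in striatum and cortex and were at or near 0 in liver. Pooled over libraries, the 2 mir-135a rows together held 1872 counts in striatum (238 CPM, exact Poisson 95% interval 228 to 249) and 1699 in cortex (218 CPM, 208 to 228), against 1 count in 3362685 in liver (0.297 CPM, 0.00753 to 1.66). The pooled level of mir-135a was 802 times that of liver in striatum (interval 144 to 31686) and 732 times in cortex (131 to 28946). No L number was shared by striatum and liver, so tissue cannot be told apart from the L number in striatal values set against liver. mir-135b held 236 counts in striatum (30.1 CPM) and 383 in cortex (49.1 CPM), and none in 32 liver libraries, where 3 counts over all of them would be 0.892 CPM and the two-sided exact interval ends at 1.10 CPM. Set against that floor of 3 counts, mir-135b was at least 33.7-fold higher in striatum and at least 55.04-fold higher in cortex. These intervals and limits cover counting error only, since they pool all libraries of a tissue and leave out the spread between libraries. The sources describe no molecular identifiers on the reads. Inside L1, WT cortex exceeded WT liver by 7.95 on the log2 scale for the summed mir-135a rows (SE 0.50, edgeR adjusted p = 3.95e-07), a contrast in which 92.5% of features were called (92.6% with the rows kept apart), and this fitted value depends on the prior count because liver was at or near 0. In such bulk tissue, fewer cells of a type and less RNA per cell cannot be told apart.

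**Figure D1:**
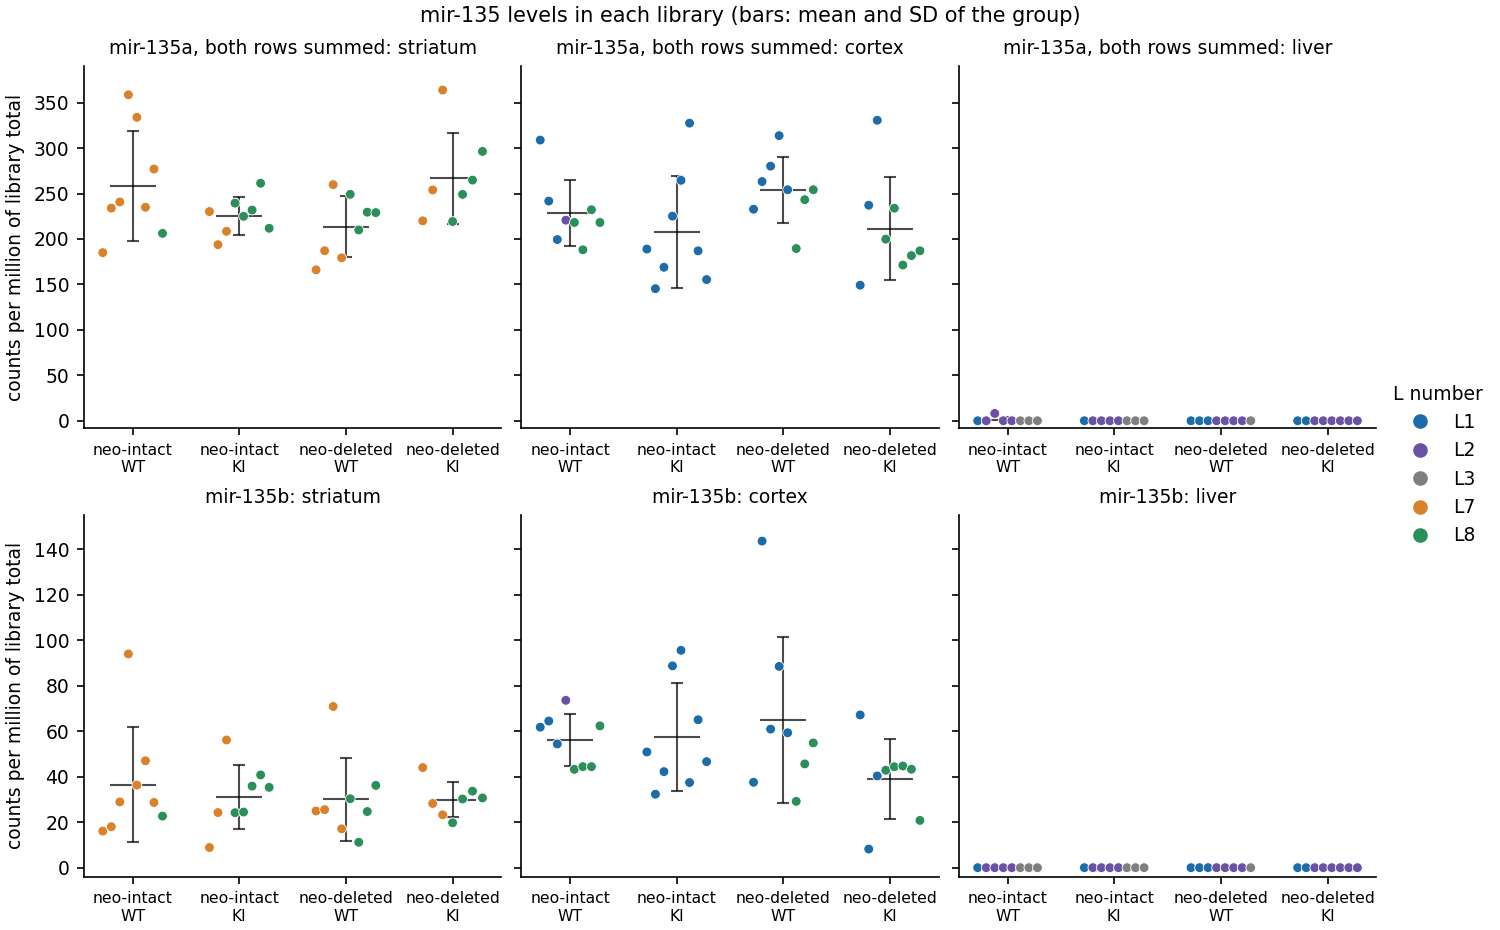
Counts per 1000000 of library total of the summed mir-135a rows (top) and of mir-135b (bottom) in each library, by tissue, line and genotype, coloured by L number, with bars for the mean and SD of each group. For mir-135a, brain libraries lie well above liver, where 1 count was found in all. For mir-135b, liver is at 0, and the lowest striatal and cortical libraries hold 1 count each. The group means of mir-135b are higher in cortex than in striatum, in panels whose L numbers differ.

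Per kilobase of feature length, the pooled order in striatum was mir-135a-2 (1499 CPM per kilobase), mir-135a-1 (984) and mir-135b (310). In cortex it was mir-135a-2 (1170), mir-135a-1 (1120) and mir-135b (506). The order of the mir-135a rows turned with the L number in cortex: mir-135a-2 led in L1 (1628 against 800), and mir-135a-1 led in L8 (1266 against 960). In striatum mir-135a-2 led in both, with 2000 against 485 in L7 and 1327 against 1155 in L8. It was not stable between libraries either: mir-135a-2 lay above mir-135a-1 in 24 of 31 striatal and 19 of 32 cortical libraries. The step to mir-135b was steadier for mir-135a-2, which lay above it in 31 of 31 striatal and 31 of 32 cortical libraries. For mir-135a-1 this held in 24 of 31 striatal and 24 of 32 cortical libraries.

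The division of counts between mir-135a-1 and mir-135a-2 moved far more than their sum. Both rows held estimates that were not whole in 52 of 63 brain libraries, while their sum was whole in all 63 (tolerance 0.005) and mir-135b was whole in all 63. In 8 brain libraries, mir-135a-1 was listed below 0.5 counts, and all 8 had L1 or L7. Where 1 is the spread expected of counting alone, the spread between libraries inside group and L number was 3.77 for mir-135a-1 and 3.30 for mir-135a-2 in striatum, but 1.201 for their sum. In cortex it was 4.62 and 5.22 for the single rows and 1.71 for the sum. The 2 rows ran against each other, with a Pearson r of -0.415 over 63 libraries after centring inside tissue and L number, which is a description of rows that share reads. The deposited rows were the main unit of the tests, and the sum of both rows is given beside them, with emphasis chosen after this division was seen.

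The share of mir-135a counts placed in the mir-135a-1 row was lowest in striatal L7 libraries, from 0% to 62.7% with a median of 14.8%. In striatal L8 libraries it ran from 26.5% to 77.6% with a median of 41.4%. Cortical L1 libraries ran from 0% to 85.3% (median 32.3%) and cortical L8 libraries from 25.7% to 70.9% (median 58.4%). The ranges overlap within each tissue, and the medians stand higher in L8, whose libraries are also the deepest. In the tests, mir-135a-2 was lower in L8 than in L7 striatum by 0.75 (log2, SE 0.19, edgeR adjusted p = 0.00060) and lower in L8 than in L1 cortex by 1.01 (SE 0.26, adjusted p = 0.0013). The changes of mir-135a-1 were 0.65 (SE 0.32, adjusted p = 0.062) and 0.32 (SE 0.41, adjusted p = 0.49). The L number went with most features: 84.6% were called between L8 and L7 (37.8% lower in L8) and 70.4% between L8 and L1 (31.2% lower in L8), or 85% and 70.8% with the rows summed. mir-135b, in fits that keep any feature with a count, was at -0.62 (SE 0.27, adjusted p = 0.063, 49.7% called) in striatum and lower in L8 by 0.82 (SE 0.26, adjusted p = 0.011, 37.2% called) in cortex. Using total counts in place of TMM moved the median feature from 0.17 to 0.46 in striatum and from 0.12 to 0.40 in cortex, and with total counts the summed mir-135a rows differed by -0.03 (adjusted p = 0.79) and -0.20 (adjusted p = 0.14) in place of -0.32 (adjusted p = 0.0042) and -0.47 (adjusted p = 0.0017). After all libraries of a tissue were thinned to 1 depth, the sum differed by -0.13 in striatum (adjusted p = 0.32) and by -0.52 in cortex (adjusted p = 0.016). mir-135a-2 was called lower in L8 after thinning in both tissues, by 0.63 in striatum (adjusted p = 0.0060) and 0.91 in cortex (adjusted p = 0.014).

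**Figure D2:**
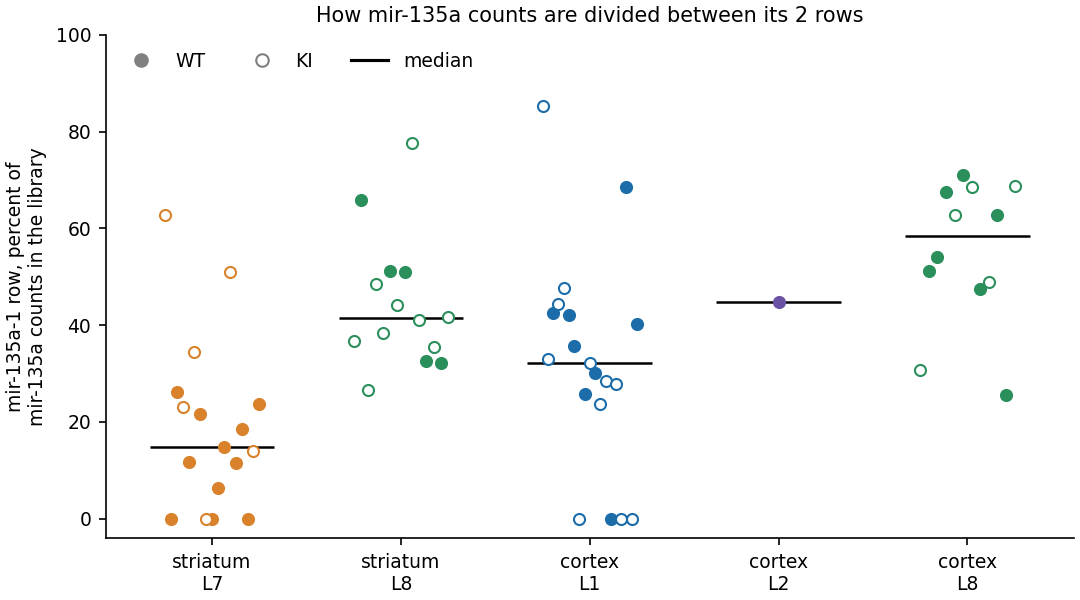
Percent of mir-135a counts assigned to the mir-135a-1 row in each striatal and cortical library, by L number, with filled points for WT, open points for KI and a line for the median. Libraries at 0% have L1 or L7 only, and the L8 medians are 41.4% and 58.4%.

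Striatum and cortex were compared in WT mice inside L8, the only L number present in both. Line was unevenly spread there, with 4 of 5 striata and 3 of 7 cortices from the neo-deleted line. Most of these striata were male and most of these cortices female, so tissue is partly tied to sex and line. mir-135b was lower in striatum, and mir-135a was not called different. mir-135b stood at 30.3, 11.2, 24.7, 36.2 and 22.7 CPM in the 5 WT striata and between 29.1 and 62.3 CPM (median 44.4) in the 7 WT cortices. The ranges overlap, with 3 of 5 striata below every cortex and 5 of 5 below the cortical median. The difference was -1.11 (log2, SE 0.32, 95% interval -1.80 to -0.41, edgeR adjusted p = 0.016). In this fit 41.3% of 218 features were called and 20.6% were called lower in striatum, so such a call was common. Over all WT libraries with no filter, the value was -0.995 (SE 0.26, adjusted p = 0.0027, 31.1% of features called), or -1.07 with the animal as a block (SE 0.23, adjusted p = 0.00093, 26.8% called). Those fits also set striatal L7 against cortical L1, and mir-135b itself differed between L8 and L1 in cortex, as given above. With the KI libraries of L8 added it was -0.85 (SE 0.20, edgeR adjusted p = 0.00069, 55.1% called), and 14 of 14 striatal libraries lay below the median of the 12 cortical ones. All 5 KI cortices of L8 were neo-deleted, while 5 of 9 KI striata were neo-intact. The fits inside L8 had no term for the animal, although neo-deleted WT F3 and neo-deleted KI F4 and M4 gave both tissues there. The call was lost without neo-intact WT striatum M3 (-1.02, adjusted p = 0.051), without neo-deleted WT cortex M3 (-0.97, adjusted p = 0.12) and after thinning (-0.88, adjusted p = 0.096).

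The summed mir-135a rows averaged 225 ± 17.3 CPM in the 5 WT striata and 221 ± 25.2 CPM in the 7 WT cortices of L8, and the ranges of 206 to 249 and 188 to 254 CPM overlap almost wholly. The difference was -0.14 (SE 0.13, interval -0.41 to 0.14, edgeR adjusted p = 0.43, 41.5% of features called), in a fit with TMM scaling, sex and line whose sign is opposite to that of the means. For mir-135a-2 the means were 119 ± 28.2 CPM in striatum and 102 ± 43.03 CPM in cortex, also opposite in sign to the fit, and the value turned to 0.12 without sex and line. Neither single row was called, with -0.06 for mir-135a-1 (SE 0.29, adjusted p = 0.90) and -0.22 for mir-135a-2 (SE 0.28, adjusted p = 0.58). Over all WT libraries, where striatal L7 is set against cortical L1, mir-135a-1 was called lower in striatum by 0.96 (adjusted p = 0.012, 48.6% of features called), and by 1.11 with the animal as a block (adjusted p = 0.024, 45.1% called). In those fits tissue cannot be told apart from the L number. Among KI libraries of L8, the sum averaged 244 ± 26.7 CPM in 9 striata and 195 ± 24.2 CPM in 5 cortices. There, 0 of 9 striata lay below the cortical median. These KI libraries differ in line, as given above. In the fit of all L8 libraries with KI included, the sum was at 0.038 and was not called. The share of mir-135b in the family's counts was taken over WT and KI libraries together. It was 10.6% ± 2.50 in the 14 striatal and 17.02% ± 3.27 in the 12 cortical L8 libraries. In striatal L7 libraries it was 12.1% ± 5.41, and in cortical L1 libraries 20.3% ± 7.57.

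**Figure D3:**
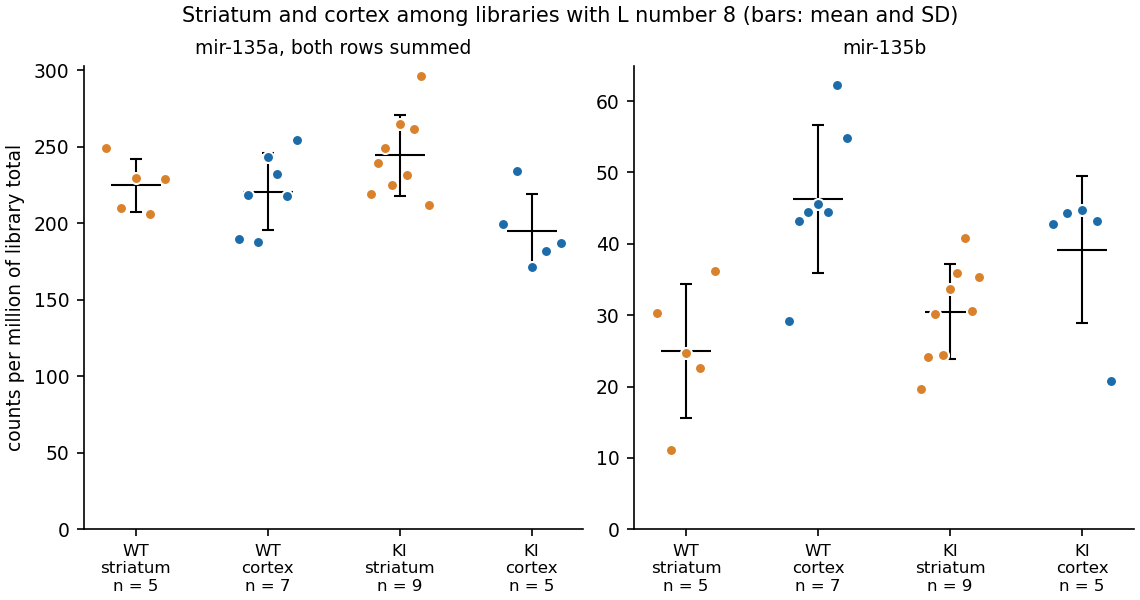
Counts per 1000000 of the summed mir-135a rows (left) and of mir-135b (right) in the libraries with L8, by genotype and tissue, with the mean and SD. WT striata average 225 and WT cortices 221 for mir-135a, whereas the WT means of mir-135b are 24.99 and 46.3.

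The study's main question is how KI mice differ from WT littermates in each line, and it was asked with sex and L number in the model. The filter kept mir-135a-1 and mir-135a-2 in striatum and cortex and none of the 3 rows in liver. mir-135b fell below it in the striatal and cortical fits and was tested there only in fits that keep any feature with a count. No deposited row of the family was called in any of the 4 brain contrasts.

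In the striatum of neo-intact mice, the summed mir-135a rows ran from 194 to 261 CPM in KI (median 227, n = 8) and from 185 to 359 CPM in WT (median 238, n = 8), and the groups overlap. The change was -0.09 on the log2 scale (SE 0.13, interval -0.35 to 0.18, edgeR adjusted p = 0.96), in a contrast where 15.5% of features were called. The single rows leaned in opposite directions without a call: mir-135a-1 was at 0.95 (SE 0.46, adjusted p = 0.20) and mir-135a-2 at -0.40 (SE 0.25, adjusted p = 0.36), against 15.4% of features called. Inside L7, mir-135a-1 averaged 75.4 ± 27.7 CPM in 3 KI and 28.3 ± 23.7 CPM in 7 WT striata. There, mir-135a-2 averaged 135.4 ± 38.2 and 237.9 ± 57.04 CPM. KI and WT did not overlap for mir-135a-2, but overlap was not counted over all features, so how common this is among them is not known. The fitted value inside L7 was -0.69 for mir-135a-2 (SE 0.34, edgeR adjusted p = 0.28, 7.14% of features called). For the sum, the 3 KI striata of L7 averaged 211 ± 18.3 CPM and the 7 WT striata 266 ± 61.2 CPM, with 0 of 3 KI above the WT mean and a fitted value of -0.22 (SE 0.22, adjusted p = 0.70). Inside L8 it leaned the other way, at 0.18 (SE 0.17, adjusted p = 0.77), but there was 1 WT library, which stood at 206 CPM for the sum, below each of the 5 KI libraries at 239, 225, 232, 261 and 212 CPM, and 1.28% of features were called. Without the L number in the model, mir-135a-2 was called lower in KI (-0.86, adjusted p = 0.046).

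In the striatum of neo-deleted mice, the summed mir-135a rows were higher in KI in the main setting, and the call did not hold across settings. KI libraries ran from 219 to 364 CPM (median 254, n = 7) and WT libraries from 166 to 260 CPM (median 219, n = 8), and the groups overlap. The sum rose by 0.36 (log2, SE 0.12, interval 0.12 to 0.60, edgeR adjusted p = 0.031), while 16% of features were called in that fit. Inside L7 the 3 KI striata stood at 220, 254 and 364 CPM and the 4 WT striata at 166, 187, 260 and 179 CPM. Inside L8 the 4 KI striata stood at 219, 249, 265 and 296 CPM and the 4 WT striata at 249, 210, 229 and 229 CPM. KI means exceeded WT means inside both L numbers, and KI and WT overlap in each. The separate fits gave 0.55 inside L7 (SE 0.24, edgeR adjusted p = 0.21, with 4.4% of features called) and 0.21 inside L8 (SE 0.11, adjusted p = 0.22, with 13.2% called).

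The neo-deleted call of the sum was kept in 4 of 11 alternative settings (adjusted p 0.0105 to 0.24 over all 11) and lost without any of 5 single libraries. These were KI M3, KI M4, WT F1, WT F2 and WT M3, with adjusted p between 0.056 and 0.068. Neither single row was called, with 0.24 for mir-135a-1 (SE 0.35, adjusted p = 0.66) and 0.45 for mir-135a-2 (SE 0.23, adjusted p = 0.18), against 15.4% of features, although mir-135a-2 was called without KI F1 (0.60, adjusted p = 0.037). With mir-135b added, the family sum stood at 0.33 (SE 0.13, adjusted p = 0.081).

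The KI effect on the sum in striatum, taken as that of the neo-intact line minus that of the neo-deleted line, was -0.44 (log2, SE 0.17), with an unadjusted p of 0.017 in edgeR's test and an adjusted p of 0.81, so that a difference between the lines was not called. For mir-135a-2 the difference was -0.85 (SE 0.33, adjusted p = 0.74) and for mir-135a-1 it was 0.71 (SE 0.57, adjusted p = 0.92). For mir-135b it was -0.0088 (SE 0.48, adjusted p = 1). Of all features, 0.532% were called in this contrast, or 0.535% with the rows summed and 0.269% with no filter.

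In cortex, no KI effect on the family was called in either line, and none of the features tested was (0% of 186 in each line). At an unadjusted p under 0.05, the fit with summed rows had 15 features for the neo-intact line and 9 for the other. In neo-intact mice, where every KI library had L1, the sum ran from 145 to 327 CPM in KI (median 188) and from 188 to 309 CPM in WT (median 219), with a change of -0.21 (SE 0.17, interval -0.56 to 0.14, edgeR adjusted p = 0.58). In neo-deleted mice it ran from 149 to 331 CPM in KI (median 193) and from 189 to 314 CPM in WT (median 254), with a change of -0.19 (SE 0.14, interval -0.48 to 0.10, adjusted p = 0.84). KI and WT overlap in both lines. mir-135a-1 changed by -0.12 (SE 0.58, adjusted p = 0.93) and -0.45 (SE 0.45, adjusted p = 0.86) in the 2 lines, and mir-135a-2 by -0.21 (SE 0.36, adjusted p = 0.80) and -0.07 (SE 0.29, adjusted p = 0.95). Inside L1 of the neo-deleted line, mir-135a-1 averaged 35.1 ± 30.6 CPM in 3 KI and 107 ± 39.2 CPM in 5 WT cortices with no overlap. The fitted value there was -1.44 (SE 0.96, edgeR adjusted p = 0.85, 0% of features called). The summed rows did overlap, at 239 ± 90.7 and 269 ± 30.4 CPM, and overlap was not counted over all features. Inside L8, mir-135a-1 averaged 109 ± 33.7 and 112 ± 55.1 CPM. The line difference of the sum in cortex was -0.02 (SE 0.23, adjusted p = 0.99).

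mir-135b was not called in any KI contrast. In striatum it averaged 31.2 ± 14.1 CPM in neo-intact KI, 36.4 ± 25.3 in neo-intact WT, 29.9 ± 7.79 in neo-deleted KI and 30.1 ± 18.1 in neo-deleted WT. Its changes there were 0.15 (SE 0.35, interval -0.56 to 0.86, edgeR adjusted p = 0.92, 5.38% of features called) and 0.16 (SE 0.32, interval -0.48 to 0.80, adjusted p = 0.88, 6.72% called), both opposite in sign to the unadjusted means, in which L numbers are mixed. In the neo-intact line the value was -0.25 inside L7 (SE 0.61) and 0.57 inside L8 (SE 0.51, against 1 WT library). In cortex it averaged 57.3 ± 23.6 CPM in neo-intact KI, 56.1 ± 11.3 in neo-intact WT, 38.9 ± 17.6 in neo-deleted KI and 64.9 ± 36.4 in neo-deleted WT. The cortical changes were -0.11 (SE 0.35, interval -0.83 to 0.60, adjusted p = 1) and -0.40 (SE 0.29, interval -0.99 to 0.19, adjusted p = 0.90), the first again opposite in sign to the means. The neo-deleted value was -0.85 inside L1 (SE 0.52, adjusted p = 0.91), where 3 KI averaged 38.5 ± 29.5 CPM and 5 WT 77.9 ± 40.9 CPM. Inside L8 it was -0.10 (SE 0.31, adjusted p = 1), and without 1 library it ran from -0.67 to -0.29. Counts of this row were low, with 1 to 17 per striatal library.

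**Figure D4:**
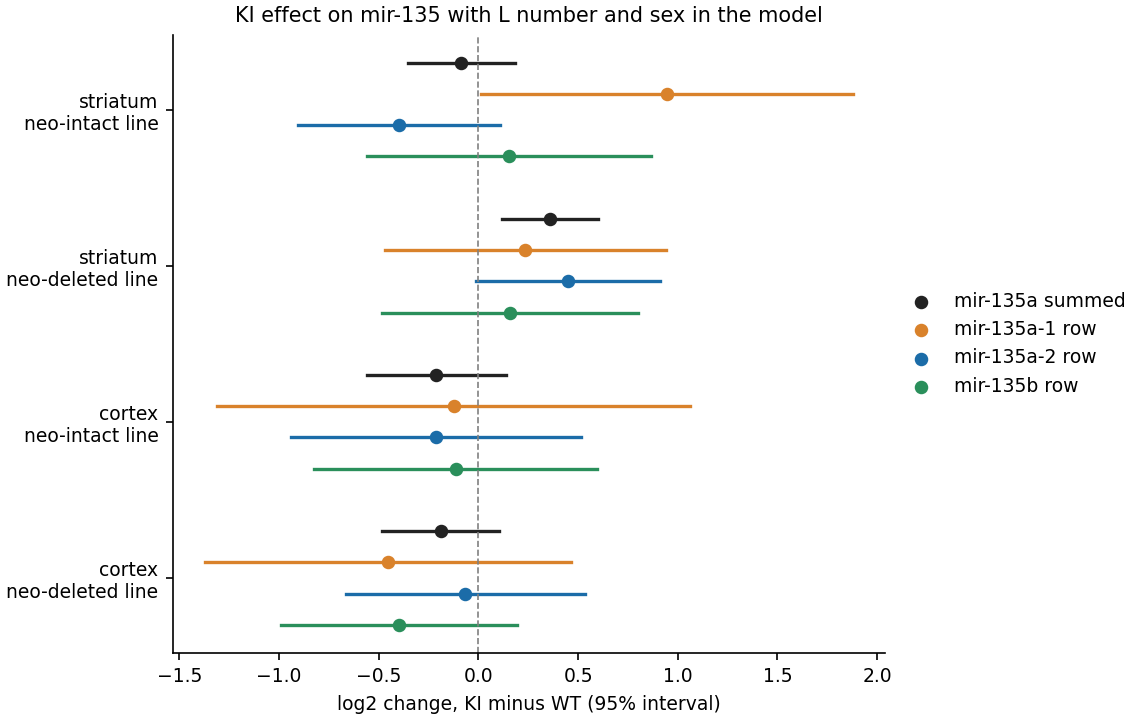
Log2 change of KI minus WT with its 95% interval for the summed mir-135a rows, each single row and mir-135b, in 4 contrasts with sex and L number in the model. The sum in neo-deleted striatum (0.36, interval 0.12 to 0.60) and mir-135a-1 in neo-intact striatum (0.95) are the values whose intervals lie above 0, and only the first had an adjusted p under the threshold.

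Likeness to the most abundant row, mir-135a-2, was weak. Over 63 brain libraries and 181 features, in log2(CPM + 1) centred inside tissue and L number, the highest Pearson r were 0.483 for MI0003530, 0.346 for MI0000778 and 0.344 for MI0000542. For the summed mir-135a rows, chosen after the data were seen, they were 0.415 for MI0003530, 0.359 for MI0000461 and 0.35 for MI0003760. Only the first feature is in both lists. The files do not pair these identifiers with names. The points share libraries, depth and scaling, and low counts alone limit such values, so they describe these libraries only. The summed mir-135a rows and mir-135b had an r of 0.239.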

How the data were processed

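Small RNA of 95 libraries was analysed from the authors' 2 deposited tables. The deposited count table holds the authors' estimated counts per feature, not scaled for depth and not always whole. The deposited FPKM table, which the authors scaled by feature length and library total, served here only to derive feature lengths. CASAVA 1.8.2 and the build mm10 are named in the submitters' processing notes, and the aligner and counting method are not given in the sources used here. Identifiers were not found in the reference tables, so the tissue marker miRNAs and the list of other neuronal miRNAs could not be applied, and only the 3 members are named. These, the lists and the comparisons were chosen with earlier results of these data known. The rule named the 3 members and the 3 features most like the most abundant one.

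Counts were rounded and fitted in R 4.3.3 with edgeR 4.0.16 (filterByExpr, minimum count 10, minimum total 15, by group), each tissue on its own, with group, sex and L number. Tissues were compared with sex and line. Alternatives covered other scalings, DESeq2 1.42.0, no filter, other covariates, single L numbers, thinning, summed rows and leaving out each library. Intervals use the quasi-likelihood SE, or the SE of Poisson counting where that is larger. Likewise, edgeR raises a p to that of a Poisson test where it is larger. The fits were tested on simulated data. Animals are separate in KI and WT. Same-numbered KI and WT libraries did not deviate together (r over 0.1 in 3 of 8, 3 of 7, 1 of 8 and 2 of 8 pairs), so they were not paired, while striatum and cortex of 1 animal share its identifier in the labels.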

Additional observations from a re-analysis of the deposited data

Results flagged for a closer look

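In 6 of 32 combinations of brain group and quantity, 1 library stood apart from the rest of its group by Dixon's criterion at the 95% level. Chance alone gives this in about 1 in 20 groups of like libraries. Most of these groups mix L numbers of unlike depth, so that rate cannot be applied to them. Apart from neo-intact KI striatum M2, which had L8, the flagged libraries had L1 or L7. The quantities overlap, since the sum contains both mir-135a rows. mir-135a-1 was at 180 CPM in neo-intact KI striatum M2, where the next was 107, and listed at 0 CPM in neo-intact WT cortex M3, where the next was 80.03. mir-135a-2 was at 331 CPM in neo-deleted KI cortex M3, 1 of the 8 brain libraries in which mir-135a-1 was listed below 0.5 counts. The summed rows were at 309 CPM in neo-intact WT cortex F3. mir-135b was at 93.9 CPM in neo-intact WT striatum F4 and at 70.8 CPM in neo-deleted WT striatum F4, where the next values were 46.98 and 36.2 CPM. These 2 libraries had L7 and held 11 and 9 counts of the row.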

How the results depend on the processing

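Of 634 recomputed values, 575 kept their direction and their side of the threshold. The cause of each change below was not tested, also where the setting has fewer libraries.

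For the summed rows in neo-deleted striatum, the call was lost with total counts (0.29), no filter (0.38), thinning (0.40), no L number (0.37), only the 2 groups (0.36), inside L7 (0.55) and inside L8 (0.21), and values without 1 library ran from 0.29 to 0.46. The replicate block gave 0.37 (edgeR adjusted p = 0.024) and changed no KI call, and the replicate numbers are not shown to pair the mice. The sum in neo-intact striatum was 0.18 inside L8 and -0.19 to 0.0012 without 1 library.

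Without the L number, values in neo-intact cortex were 0.31 (mir-135a-2), 0.038 (sum) and 0.32 (mir-135b), line differences in cortex were 0.52 (mir-135a-2) and 0.34 (sum), mir-135a-2 in neo-intact striatum was -0.86, and mir-135b there was -0.23. Inside L7 mir-135b was -0.25 and -0.054 in the 2 striatal contrasts. Inside L8, mir-135a-1 was -0.032 in neo-deleted striatum and 0.00016 in neo-deleted cortex, and mir-135a-2 inside L1 of the latter was 0.32. mir-135a-1 in neo-intact cortex was 0.0042 with the replicate block, and mir-135b there was 0.035 with only the 2 groups.

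For striatum against cortex, mir-135a-1 was 0.051 with total counts, 0.076 thinned, and -0.96 and -1.11 over all WT libraries without and with the animal as block. mir-135a-2 was 0.12 without sex and line, 0.36 and 0.39 over all WT libraries, and 0.32 with KI included, where the sum was 0.038. Thinned mir-135b was -0.88. Without 1 library these ran from -0.36 to 0.21 (mir-135a-1), -0.52 to 0.34 (mir-135a-2) and -1.34 to -0.95 (mir-135b). The filtered fits over all WT libraries gave no value for mir-135b; the unfiltered ones, like the KI and L number values of mir-135b, were added after seeing the data.

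For L8 against L7, mir-135a-1 was 0.93 with total counts and 0.87 thinned, and the sum -0.029 and -0.13. For L8 against L1 with total counts, the sum was -0.20 and mir-135b -0.45. Without 1 library, mir-135a-2 in neo-deleted striatum ran from 0.34 to 0.60, mir-135a-1 in neo-intact cortex from -0.43 to 0.10, mir-135a-2 in neo-deleted cortex from -0.27 to 0.19, and mir-135b from -0.044 to 0.41 and -0.019 to 0.34 in the 2 striatal contrasts.

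Features called in neo-intact striatum, 29, fell to 13 inside L7 and 3 inside L8. In neo-deleted striatum, 29 became 44 with DESeq2, 10 without the L number and 8 inside L7. The line difference in striatum went from 1 to 0 and neo-intact cortex from 0 to 18 without the L number, and liver from 0 to 6 and 5 with no filter.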
